A study of Homo sapiens with 4 samples.

Results

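METS is a cell line established out of a lung metastasis that formed in a xenograft of DLD1, a human colorectal cancer line. The labels do not name the host species. The labels call both lines epithelial. The comparison took the METS and DLD1 libraries, 2 of the 4 in the series, and genes where the higher of the 2 lines reached 1 RPKM (reads scaled to gene length and to library size), which left 11275 of 57746 listed genes. For each gene the difference is log2(RPKM + 1) in METS minus the same in DLD1. Its members are the 160 genes at least 2-fold apart, a difference of 1 or more on that scale. A narrower set holds the 6447 broadly expressed genes of 5 RPKM or more in both lines. The other 2 lines, SA from soft agar colonies and SPH from colonospheres, are labelled mesenchymal and serve here only to place the METS and DLD1 values. All 4 lines were kept in one serum-containing medium. Where 4 levels are listed for a gene, their order is DLD1, SA, SPH, METS, and where 2 are set against each other the first is DLD1; the signed value in brackets is the log2 difference. Each line has 1 library, so no difference below has a replicate check, no test was possible, and the number of xenografted animals or metastases behind METS is not given in the sources used here.

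A line grown out of a metastasis descends from the cells that left the primary graft, survived transport and grew in another organ. Its RNA is measured after return to culture, so a difference from the parent is one that was still present in the dish. Colorectal cancer cells commonly carry an intestinal epithelial programme that includes keratins, cadherins, mucins and the transcription factors CDX2 and HNF4A. A bulk measurement cannot tell fewer cells expressing a gene from less RNA per cell.

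Markers of cell identity were looked up in both lines. Of 13 colon epithelial identity markers 10 were measured, with 6 higher and 4 lower in METS and none 2-fold apart. EPCAM, an epithelial adhesion molecule, stood at 212 RPKM in DLD1 and 263 in METS, and HNF4A at 6.39 and 6.14 RPKM. The lines labelled mesenchymal held similar levels of these 2 genes, with EPCAM at 222 RPKM in SA and 231 in SPH, and HNF4A at 6.4 and 6.22. EPCAM and HNF4A thus do not separate the epithelial label from the mesenchymal one. KRT8 (817, 565, 587 and 1084 RPKM), KRT18, KRT19 and CDH1 (115, 94.5, 97.3 and 103) were lower in SA and SPH than in DLD1 and METS. CDH17 went the other way, at 22.51, 26.15, 34.98 and 14.18 RPKM, and CDX2, TFF3 and VIL1 followed neither order. With 1 library per line, these markers are no check of the labels. CDX1, LGALS4 and GPA33 stayed under 1 RPKM in both lines. Most markers of other cells were at or near 0: none of 9 fibroblast and none of 5 erythroid markers reached 1 RPKM, PTPRC of leukocytes and CDH5 of endothelium were listed at 0 in all 4 lines, and the lung surfactant gene SFTPC stood at 0.01 RPKM in DLD1 and was listed at 0 in METS. Those that reached 1 RPKM in a line were CD14 of monocytes (0.89 in DLD1, 1.36 in METS), CLDN5 of endothelium (1.01 and 0.85), and AGER (1.03 and 0.87) and NKX2-1 (0.57 and 1.0) of lung epithelium. The 4 libraries summed to between 275639 and 284919 RPKM, with 25.5% to 26.6% from mitochondrially encoded genes. The step size of low values placed 53.95 reads in DLD1 and 50.2 in METS on a transcript of 1 kb at 1 RPKM.

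Of the 160 members, 59 (0.523% of genes compared) were higher in METS and 101 (0.896%) lower, 1.42% in all. Of them 14 (0.124%) were 4-fold apart, 7 higher (0.0621%) and 7 lower (0.0621%), and the 146 between 2-fold and 4-fold, 52 higher and 94 lower, make up most of the comparison. Of all genes compared 44.7% were higher and 54.9% lower in METS, with a median difference of -0.03. METS was highest of the 4 lines for 55 of the 59 higher members and lowest for 95 of the 101 lower ones, against 24.8% and 38.7% of all genes. METS takes part in the choice of the members, so these counts describe them and are no separate support. The scatter of METS against DLD1 shows the members along both sides of a narrow diagonal.

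**Figure D1:**
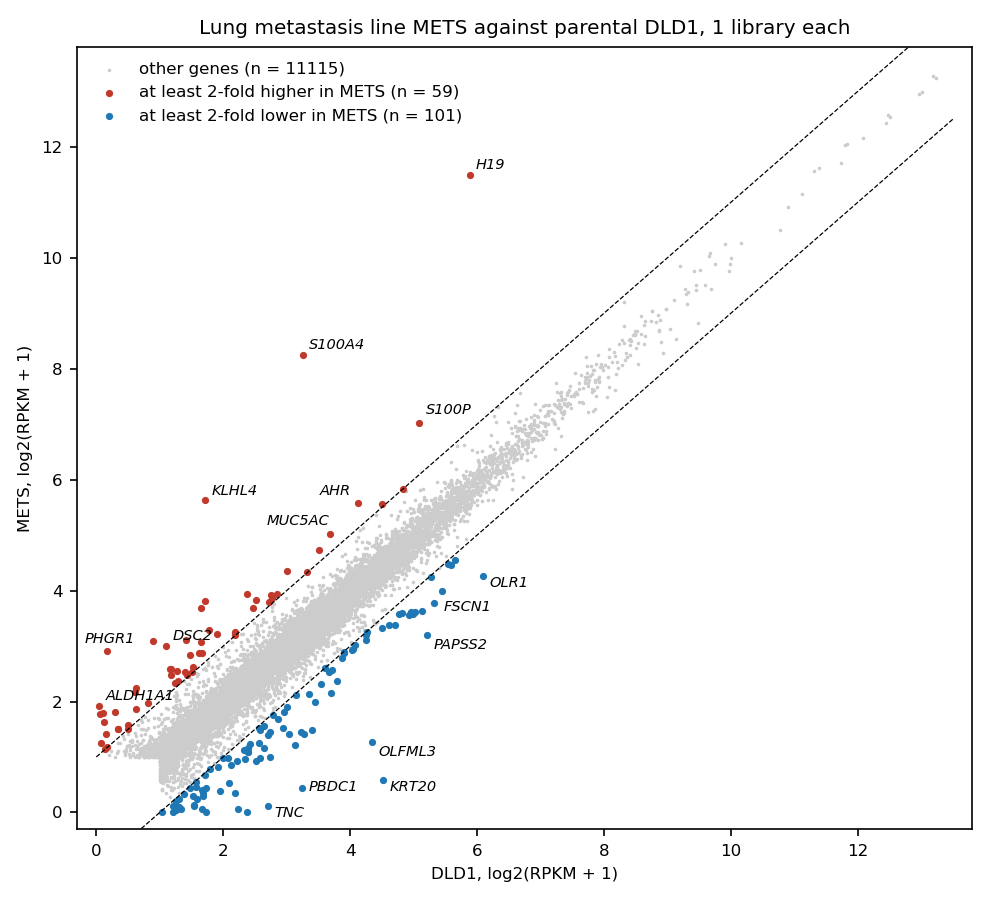
Each point is 1 of 11275 genes, with log2(RPKM + 1) in DLD1 on the x axis and in METS on the y axis, 1 library each, and dashed lines mark 2-fold. Red points are the 59 genes higher in METS and blue points the 101 lower, and H19 and S100A4 lie farthest above the diagonal while KRT20 and OLFML3 lie farthest below it.

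The promoter sequences of 4 members are shown as examples of large differences in each direction, picked after values were seen. S100A4, whose product binds calcium and acts on motility, was the protein-coding gene with the highest difference, and KRT20, an intestinal keratin, was the lowest. TNC, the matrix glycoprotein tenascin, and PBDC1 were lower in METS than in each of the 3 other lines. Each run holds the 250 bases before the annotated start, from RefSeq on GRCh38.p14, read 5′ to 3′ on the gene's strand, with CG dinucleotides in capitals.
S100A4, chr1:153545807-153546056, - strand: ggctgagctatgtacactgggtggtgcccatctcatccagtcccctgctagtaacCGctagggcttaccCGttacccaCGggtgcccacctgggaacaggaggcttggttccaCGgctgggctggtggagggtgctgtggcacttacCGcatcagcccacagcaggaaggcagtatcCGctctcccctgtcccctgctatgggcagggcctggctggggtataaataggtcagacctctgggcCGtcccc
KRT20, chr17:40885243-40885492, - strand: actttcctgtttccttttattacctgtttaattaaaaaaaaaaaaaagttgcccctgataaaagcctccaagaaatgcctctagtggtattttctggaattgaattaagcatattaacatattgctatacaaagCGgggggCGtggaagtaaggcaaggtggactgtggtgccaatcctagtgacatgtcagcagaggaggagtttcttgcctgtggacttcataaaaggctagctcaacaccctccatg
TNC, chr9:115118158-115118407, - strand: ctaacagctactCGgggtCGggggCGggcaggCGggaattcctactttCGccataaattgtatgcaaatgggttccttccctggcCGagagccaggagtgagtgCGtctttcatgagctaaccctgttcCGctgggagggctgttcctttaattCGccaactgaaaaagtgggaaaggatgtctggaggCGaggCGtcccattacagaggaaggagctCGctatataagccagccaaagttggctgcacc
PBDC1, chrX:76172812-76173061, + strand: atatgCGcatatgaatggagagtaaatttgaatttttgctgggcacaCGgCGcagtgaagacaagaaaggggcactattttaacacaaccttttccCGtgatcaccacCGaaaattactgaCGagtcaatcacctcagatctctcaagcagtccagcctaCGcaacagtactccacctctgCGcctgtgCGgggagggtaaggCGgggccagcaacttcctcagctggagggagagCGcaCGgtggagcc
KRT20 has 2 CG dinucleotides, S100A4 has 7, and TNC and PBDC1 have 12 each. The median over 8697 promoters of genes compared was 22, and the 4 shown all lie below the lower quartile, 15. Other members looked up ranged from 4 in S100P and H19 to 15 in KLK7 and 24 in AHR, so the 4 shown do not stand for the members. TATAAA or its reverse complement was found in the S100A4 run and not in the other 3, and 4.91% of the 8697 promoters hold it. The table held a promoter for 109 of the 160 members, which is too few to describe the members as a set.

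Among broadly expressed genes the 2 lines were close: 6257 of 6447 (97.1%) lay within 1.5-fold. There were 42 members in this set (0.651%), 14 higher (0.217%) and 28 lower (0.434%). Pseudocount 5 left 17 members in this set. Among the 28 lower genes METS held between 0.228 and 0.479 of the DLD1 level, while SA and SPH held between 0.537 and 1.38 of it. METS was lowest of the 4 lines for 28 of 28, and it was highest for 13 of 14 higher genes. TUBA1A was the exception, with levels of 5.71, 13.6, 15.6 and 14.1 RPKM, so that DLD1 stood apart from its 3 derivatives.

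**Figure D2:**
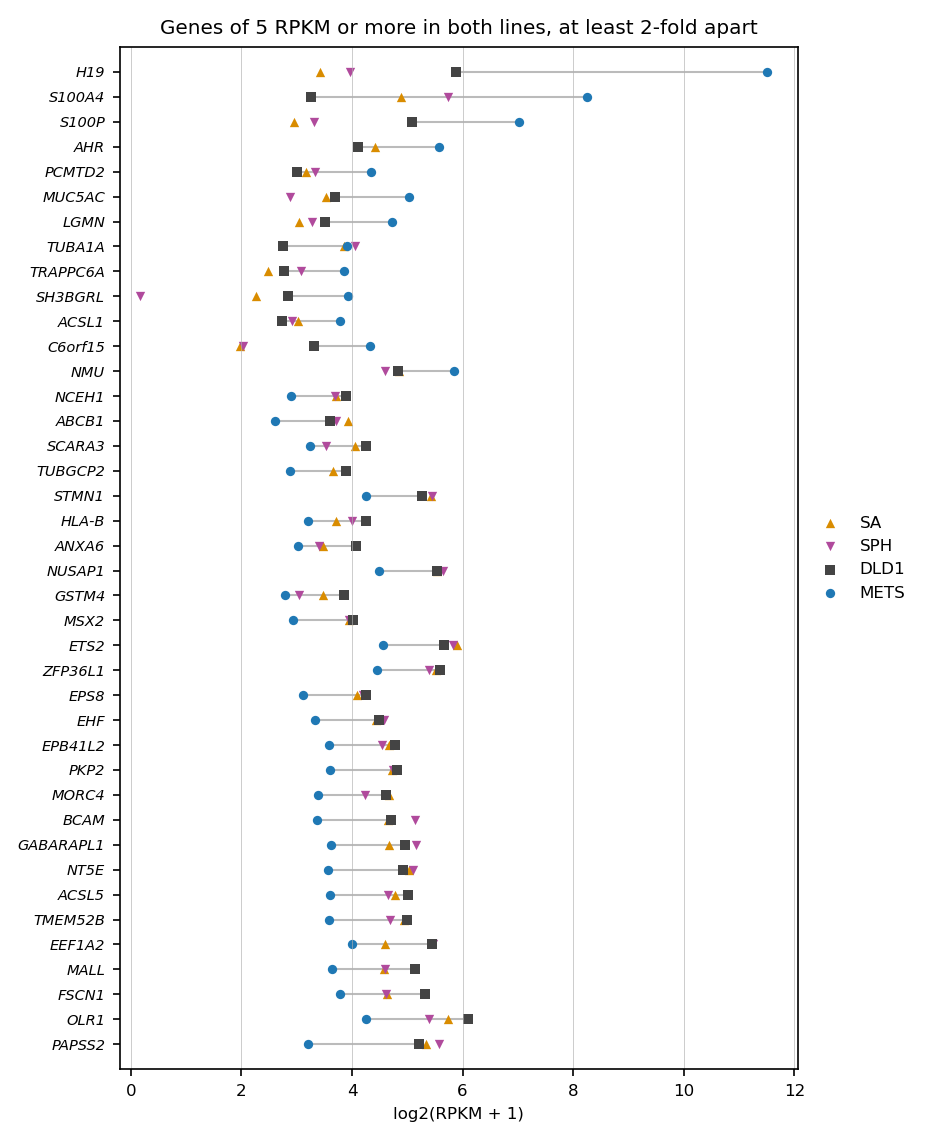
Of the genes of 5 RPKM or more in DLD1 and METS and at least 2-fold apart, 40 are shown, with log2(RPKM + 1) on the x axis and 1 marker per line (1 library each). The grey bar joins DLD1 and METS, and for the lower 27 genes METS lies to the left of all 3 other lines.

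The broadly expressed genes higher in METS encode proteins of varied function. AHR, the ligand-activated receptor for aromatic hydrocarbons, had 16.4, 20.3, 16.1 and 46.7 RPKM (1.46). MUC5AC, a secreted gel-forming mucin typical of stomach and airway, stood at 11.9, 10.5, 6.34 and 31.6 RPKM (1.34). LGMN, the lysosomal protease legumain, stood at 10.4, 7.22, 8.73 and 25.4 RPKM (1.21). In these 3 genes METS lay above all 3 other lines. NMU, the neuropeptide neuromedin U, was just inside the rule at 27.5 against 56.1 RPKM (1.0), and ACSL1, which activates long-chain fatty acids, stood at 5.62 against 12.8 RPKM (1.06). S100P, a calcium-binding protein of many carcinomas, stood at 33.1, 6.78, 9.0 and 129 RPKM (1.93), low in both mesenchymal lines and high in METS. PCMTD2 (7.04, 8.0, 9.12 and 19.4 RPKM, 1.35) and TRAPPC6A, of a vesicle tethering complex (5.82, 4.56, 7.49 and 13.54 RPKM, 1.09), were highest in METS. C6orf15 shared the order of S100P, at 8.95, 2.94, 3.06 and 19.1 RPKM (1.01).

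Just short of the rule, AGR2, a disulfide isomerase of mucus-secreting epithelium, stood at 79.8 RPKM in DLD1 and 158 in METS (0.98). S100A6 stood at 318 against 587 RPKM (0.88), the tetraspanin CD9 at 101 against 188 (0.89), and ID2, an inhibitor of basic helix-loop-helix factors, at 76.1 against 141 (0.88). These genes had high levels in both lines, so their absolute differences were among the larger in the comparison although they are not members. GNAL, NMU, KCNN4 and CPT1A were the members nearest to the rule on the higher side, between 1.0 and 1.01. On the lower side, ABCB1 and NCEH1 lay just inside (-1.01 each) and RMI2, ITGA6 and PSMB8 just outside (-1.0, -0.99 and -0.99).

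The broadly expressed genes lower in METS included enzymes, cytoskeletal proteins and transcription factors. PAPSS2, which makes the sulfate donor for sulfation reactions, had 36.1, 39.6, 46.5 and 8.22 RPKM (-2.01). Its paralogue PAPSS1 stood at 26.5 RPKM in DLD1 and 31.2 in METS, so the difference was in PAPSS2 alone of the pair. FSCN1, the actin-bundling protein fascin, stood at 39.1, 23.9, 23.4 and 12.8 RPKM (-1.54), and MALL, a membrane raft protein, at 34.2, 22.9, 23.1 and 11.4 (-1.50). Both were highest in DLD1 and intermediate in SA and SPH. EEF1A2, a translation elongation factor isoform, stood at 42.6, 23.1, 43.1 and 15.01 RPKM (-1.45). NT5E, the ecto-enzyme that makes adenosine, and ACSL5, an intestinal acyl-CoA synthetase, stood at 10.8 and 11.2 RPKM in METS against 29.4 and 31.4 in DLD1 (-1.36 and -1.40).

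Sorted by textbook function after their values were seen, 138 of the members fell into 16 groups, and the counts below describe that sorting. They stand beside 59 higher and 101 lower among all 160 members. Of 14 members sorted under intestinal and mucosal surface 5 were higher and 9 lower. The 9 include KRT71 and PRR9, which fit that group name only loosely. MUC13, a membrane mucin of the colon, stood at 8.34, 9.27, 12.1 and 1.74 RPKM (-1.77), opposite to MUC5AC. LCN2, the iron-binding lipocalin of inflamed epithelium, stood at 8.62 against 1.66 RPKM (-1.85). PROM2, a membrane protrusion protein, was higher, at 2.16 against 6.29 RPKM (1.21). Among 16 measured genes of the intestinal differentiation list, 1 was 2-fold higher and 3 were 2-fold lower, against 0.523% and 0.896% of all genes. The list median was -0.12.

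Secreted growth and signalling factors were near even, with 6 higher and 7 lower members. Of 8 measured matricellular and secreted matrix genes 7 were lower, against 54.9% of all genes, with a median of -0.81. Of the 7, 3 were 2-fold lower, against 0.896% of all genes. OLFML3, a secreted olfactomedin-domain protein, stood at 19.4, 9.42, 8.82 and 1.40 RPKM (-3.09), highest in DLD1, and TNC at 5.55, 6.61, 7.12 and 0.08 RPKM (-2.60), where the 3 other lines were alike. CTGF, a matricellular growth factor, stood at 9.26 against 3.38 RPKM (-1.23). Members of the list between 1.5-fold and 2-fold lower were TGFBI (-0.85), CYR61 (-0.76), ECM1 (-0.74) and THBS1 (-0.67). NOV, of the same family as CTGF and CYR61, was the 1 higher gene, at 0.58 against 1.98 RPKM (0.92). Among secreted signals, KITLG, the ligand of the KIT receptor, stood at 10.6 against 3.98 RPKM (-1.22), BMP2 at 4.91 against 1.88 (-1.04), the growth factor midkine, MDK, at 4.26 against 1.23 (-1.24) and SEMA5A at 3.54 against 0.27 (-1.84). In the other direction, IGFBP6, which binds IGF2 with preference, stood at 4.18 against 14.3 RPKM (1.56), CTHRC1, a secreted collagen repeat protein, at 0.55 against 3.71 (1.60) and TNFRSF11B, the decoy receptor osteoprotegerin, at 0.11 against 1.65 (1.26). CTHRC1 was also higher in SA and SPH (2.57 and 2.43 RPKM) than in DLD1.

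Adhesion genes held members in both directions. DSC2, the desmosomal cadherin desmocollin 2, stood at 1.14, 1.27, 1.82 and 6.97 RPKM (1.90), and PKP2, the desmosomal plaque protein plakophilin 2, at 27.1, 25.3, 25.7 and 11.1 RPKM (-1.22). METS lay outside the other 3 lines in both genes, in opposite directions, and the median of the 15 measured adherens junction and desmosome genes was 0.02, or -0.17 over those of 5 RPKM or more in the higher line. CADM1, an immunoglobulin-type adhesion molecule, stood at 2.41 against 8.76 RPKM (1.52) and LAMA2, a laminin chain, at 0.55 against 2.66 (1.24). Lower were BCAM, a laminin receptor, at 25.2 against 9.35 RPKM (-1.34), CD44, the hyaluronan receptor, at 4.37 against 1.36 (-1.19), ITGB6, an integrin subunit of epithelium, at 1.92 against 0.10 (-1.41) and the coreceptor NRP1 at 5.23 against 1.24 (-1.48). PLXNB3, a semaphorin receptor, was higher, at 1.24, 1.33, 2.02 and 4.98 RPKM (1.42). All 11 measured integrins were below DLD1, against 54.9% of all genes, and ITGB6 alone was 2-fold apart.

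Proteases and their inhibitors had 6 higher and 3 lower members. KLK7 and KLK11, kallikrein serine proteases of one gene cluster, stood at 4.71 against 13.2 RPKM (1.31) and 0.05 against 1.39 (1.19). KLK10, between them in the cluster, stood at 16.3 against 22.7 RPKM (0.46), whereas KLK6 next to KLK7 was lower (77.4 against 56.2, -0.45). The 4 genes thus did not share a direction. TIMP3, a matrix-bound metalloprotease inhibitor, stood at 1.26, 0.73, 0.06 and 4.97 RPKM (1.40), and the serpin SERPINB5 at 3.56, 3.60, 8.27 and 8.59 (1.07), where SPH was as high as METS. CST6, a cysteine protease inhibitor, stood at 4.98, 0.84, 0.32 and 0.97 RPKM (-1.60) and was thus lower in all 3 derivatives. DPP4, a brush border peptidase, stood at 1.98 against 0.38 RPKM (-1.11). CTSH, the lysosomal cathepsin H, stood at 7.88 against 3.32 RPKM (-1.04), opposite to LGMN.

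Retinoid genes held members in both directions. ALDH1A1, which oxidises retinaldehyde to retinoic acid and marks some stem-like cancer cells, stood at 0.03, 0.00, 0.01 and 2.78 RPKM (1.88), present in METS alone. DHRS3, which reduces retinaldehyde back to retinol, stood at 0.27 against 1.85 RPKM (1.17). CRABP2, the carrier of retinoic acid to its nuclear receptor, stood at 9.59, 19.7, 20.5 and 1.81 RPKM (-1.91), lowest in METS and highest in the mesenchymal lines, and RARRES3 at 1.46 against 0.18 (-1.06). Of 11 measured retinoid genes 6 were higher and 5 lower, and 4 were 2-fold apart, 2 in each direction, against 1.42% of all genes. Further enzymes of retinaldehyde production and oxidation, RDH10 (4.68 against 8.31 RPKM, 0.71) and ALDH1A3 (0.97 against 2.25, 0.72), were higher without reaching 2-fold.

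Enzymes of fatty acid use also differed in both directions. CPT1A, which admits fatty acids to mitochondria, stood at 3.57, 8.54, 12.4 and 8.20 RPKM (1.01), so that DLD1 was lowest. ACSL1 was higher and ACSL5 lower, both of them acyl-CoA synthetases. OLR1, a scavenger receptor for oxidised lipoprotein, stood at 67.2, 52.2, 41.1 and 18.1 RPKM (-1.84). PLA2G16, a phospholipase, and the lysosomal sphingomyelinase SMPD1 stood at 4.18 and 4.75 RPKM in METS against 12.8 and 11.7 in DLD1 (-1.41 and -1.15). Of 23 measured cholesterol and fatty acid synthesis genes none was 2-fold apart.

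The 7 members sorted under detoxification and redox were all lower, whereas of 23 measured genes of the detoxification and conjugation list 12 were higher and 11 lower, with a median of 0.07. NQO1 (0.75) and EPHX1 (0.74) were the highest of that list. UGT1A6, a glucuronosyltransferase, stood at 4.17, 6.58 and 5.85 RPKM in DLD1, SA and SPH and was listed at 0 in METS. The 8 other entries of the UGT1A locus, which share exons with it, stood between 0.11 and 0.27 RPKM in DLD1 and between 0.00 and 0.02 in METS. Every entry of the locus was thus at or near 0 in METS. The 8 were low in DLD1 too and may share reads with UGT1A6, so they are no separate sign of a difference. The measured genes next to the locus were present in METS, USP40 at 4.09 RPKM and HJURP at 16.2. GPX3, the secreted glutathione peroxidase, stood at 3.70, 3.68, 4.47 and 0.05 RPKM (-2.16), while the 27 other genes of the glutathione and redox list lay between -0.45 and 0.28. CYP2S1, a cytochrome P450, stood at 12.1 against 4.91 RPKM (-1.15) and GSTM4, a glutathione transferase with close paralogues, at 13.6 against 5.88 (-1.08).

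AHR is known to regulate several detoxification genes, so these were looked up after its value was seen. AHRR stood at 0.54 against 1.61 RPKM in METS, TIPARP at 5.19 against 8.70, ALDH3A1 at 10.4 against 16.2, CYP1B1 at 3.26 against 4.15 and CYP1A1 at 0.09 against 0.36. NQO1 stood at 77.3 against 130 RPKM but was highest in SPH, at 152. CYP2S1 and UGT1A6, also known as targets of AHR, went the other way. ARNT, the partner of AHR, stood at 5.01 and 4.71 RPKM. On the log2(RPKM + 1) scale none of the higher genes reached a difference of 1, although the plain ratio of AHRR was 2.98, and CYP1A1 lay under the 1 RPKM minimum. These genes were picked for their link to a member, so their directions, which were mixed, carry no weight of their own.

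Transporters and channels counted 2 higher and 7 lower members. CLIC3, of the chloride intracellular channel family, stood at 2.13, 1.54, 2.08 and 11.9 RPKM (2.05) and the calcium-activated potassium channel KCNN4 at 0.10, 0.32, 0.38 and 1.21 (1.01). CFTR, the chloride channel of crypt cells, stood at 3.27, 5.53, 3.92 and 0.44 RPKM (-1.57). ABCB1, the drug efflux pump P-glycoprotein, stood at 11.2, 14.2, 12.1 and 5.06 RPKM (-1.01). SLC2A3, a high-affinity glucose transporter, stood at 7.72, 8.69, 6.73 and 1.31 RPKM (-1.92), and the 22 other genes of the glucose uptake and glycolysis list lay between -0.44 and 0.50. SLC44A4, a choline and thiamine pyrophosphate carrier, stood at 5.50 against 1.64 RPKM (-1.30).

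Transcription and chromatin genes had 3 higher members, AHR, HOXB5 (0.22 against 2.50 RPKM, 1.52) and FOXN1 (0.27 against 1.85, 1.17), and 9 lower ones. EHF and ETS2, both of the ETS family, stood at 21.5 against 9.05 RPKM (-1.17) and 49.6 against 22.5 (-1.11). The homeobox genes MSX2 and EVX1 stood at 6.61 and 0.35 RPKM in METS against 15.3 and 1.77 in DLD1 (-1.10 and -1.04). SA and SPH did not differ in this way: EHF stood at 20.7 and 22.8 RPKM there, and MSX2 at 14.4 in both. MORC4 stood at 23.4, 24.4, 17.9 and 9.44 RPKM (-1.23). ZFP36L1, which promotes decay of AU-rich messenger RNAs, stood at 47.1 against 20.9 RPKM (-1.13). ELF3, another epithelial ETS factor, was on the other side, at 13.6 against 23.7 RPKM (0.75).

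Members sorted as cytoskeletal after values were seen were lower in 10 of 11 cases, beside 101 of all 160 members. On the list of actin cytoskeleton and membrane linker genes, 15 of 32 measured genes were higher and 17 lower. None of that list was 2-fold apart, and its median was -0.09. STMN1, the microtubule-destabilising protein stathmin, stood at 37.6, 42.3, 42.7 and 18.0 RPKM (-1.02), NUSAP1, a spindle-associated protein, at 45.7, 45.4, 48.8 and 21.4 (-1.06) and TUBGCP2, of the gamma-tubulin complex, at 13.9, 11.7, 13.6 and 6.33 (-1.02). In all 3 genes METS alone stood apart. TUBA1A was the higher member, and the 7 other genes of the tubulin list were lower (from -0.65 to -0.08). Tubulins outside the list included higher ones, such as TUBB3_1 (0.75), and near-identical tubulin genes may share reads. EPS8 and EPB41L2, which link membrane and actin, stood at 7.64 and 10.95 RPKM in METS against 18.1 and 26.4 in DLD1 (-1.14 and -1.20), and IQGAP2, a scaffold of the same cortex, at 0.08 against 1.91 (-1.43). TNNT1, a troponin, stood at 4.75, 1.65, 1.61 and 0.90 RPKM (-1.60), intermediate in SA and SPH. NUSAP1 was the 1 gene of 30 measured mitosis genes to reach 2-fold. The others lay between -0.59 and 0.28, with 26 of 30 lower in all and a list median of -0.29. Of 35 DNA replication genes 32 were lower, with none 2-fold apart and a median of -0.27. Beside both lists, 54.9% of all genes compared were lower, with a median of -0.03.

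The 5 immune and inflammatory members were lower, beside 101 lower among all 160 members. HLA-B, an antigen-presenting class I heavy chain, stood at 18.1, 12.2, 15.1 and 8.20 RPKM (-1.05), PSMB9, an immunoproteasome subunit, at 2.77, 2.26, 2.63 and 0.76 (-1.10) and IL33, a nuclear alarmin cytokine, at 7.16, 7.68, 12.6 and 1.65 (-1.62). Reads of HLA-B may be shared with other class I genes. SAA1 and the interleukin-1 pathway kinase gene IRAK2 stood at 0.03 and 0.97 RPKM in METS against 1.38 and 3.01 in DLD1 (-1.21 and -1.03). Of 17 measured class I presentation genes 14 were lower, against 54.9% of all genes, with a median of -0.26. Of the 17, 2 were 2-fold apart, against 1.42% of all genes. None of 16 interferon response genes was 2-fold apart.

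PSMA6, an alpha subunit of the core proteasome, stood at 5.66, 3.55, 3.80 and 1.0 RPKM (-1.74), while the 28 other genes of the proteasome list lay between -0.46 and 0.19. The PSMA6 entry was low in DLD1 too, where PSMA3, PSMA4, PSMA5 and PSMA7 stood at 37.4, 51.8, 19.5 and 147 RPKM. Whether all reads of PSMA6 were assigned to it was not tested. The immunoproteasome subunits PSMB9 (-1.10) and PSMB8 (-0.99) are not on the proteasome list and were also lower. KRT20 stood at 21.9, 4.06, 3.18 and 0.50 RPKM (-3.93), and the 7 other genes of the keratin list lay between -0.63 and 0.45. KRT71, a keratin outside the list, was also lower, at 1.53 against 0.05 RPKM (-1.27). CKMT1A and CKMT1B, near-identical copies of the mitochondrial creatine kinase gene, stood at 0.52 against 3.48 and 0.76 against 2.92 RPKM (1.56 and 1.16), while GAMT, which makes creatine, stood at 2.87 against 0.30 (-1.57). H19 and CDKN1C, imprinted genes of one region of chromosome 11, stood at 58.0 and 2.27 RPKM in DLD1 and at 2893 and 13.1 in METS (5.62 and 2.11). IGF2, the measured gene next to H19, stood at 1.58 against 0.61 RPKM (-0.68). Of 9 measured imprinted genes 7 were higher, against 44.7% of all genes, and 2 of them were 2-fold higher, against 0.523%.

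**Figure D3:**
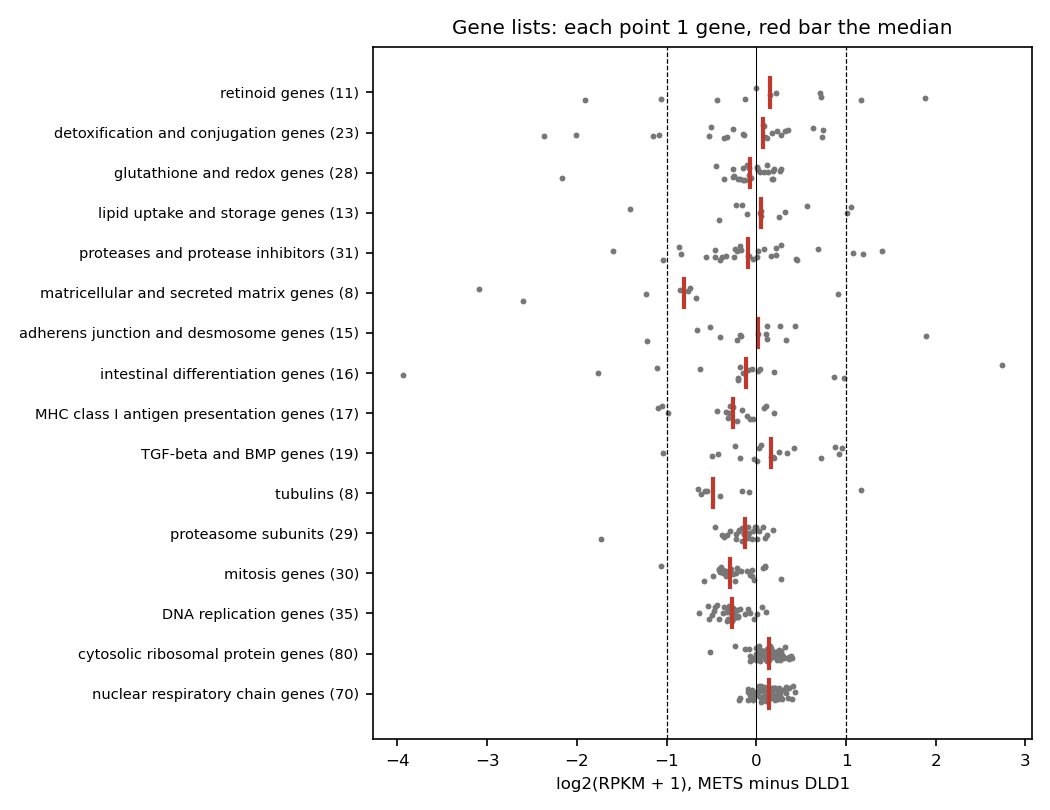
Gene lists, with each point 1 measured gene, the difference METS minus DLD1 in log2(RPKM + 1) on the x axis, the number of genes in brackets and the list median as a red bar. Retinoid and intestinal genes spread past the dashed 2-fold lines on both sides, whereas ribosomal and respiratory chain genes form narrow clusters just above 0.

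Housekeeping groups differed little. Of 80 measured cytosolic ribosomal protein genes 67 were higher, with a median of 0.14 and none 2-fold apart. Of 70 nuclear respiratory chain genes 58 were higher, also with a median of 0.14. Beside both lists, 44.7% of all genes compared were higher, with a median of -0.03. Translation factors (median 0.01), splicing factors (-0.05) and mitochondrially encoded genes (0.07) lay near the median of all genes. Shifts of this size were also seen between genes of different base composition, and its part in them was not tested. The median difference was 0.15 in the 10% of genes with the lowest GC content of the transcript and -0.17 in the 10% with the highest. With a correction for GC content, added after seeing the data, the medians were 0.16 for both groups and -0.28 for mitosis genes, beside -0.0006 for all genes. Before it, they were 0.14 for both groups and -0.29 for mitosis genes, beside -0.03 for all genes. Members themselves had a median GC content of 51.8% (higher) and 49.5% (lower) against 48.4% for all genes.

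Near-absence in one line marked 23 genes. The limits that define it were set after values were seen, and the one for DLD1 was put at 0.12 RPKM, the level of PHGR1 and CAPN9 there. In METS 14 genes of at least 1 RPKM in DLD1 stood at 0.10 RPKM or less, and 9 genes of at least 1 RPKM in METS stood at 0.12 or less in DLD1. The 9 genes of METS stayed at 0.50 RPKM or less in SA and SPH. Among them were PHGR1 (0.12 against 6.48 RPKM), ALDH1A1, KLK11, TNFRSF11B, KCNN4 and the calpain gene CAPN9 (0.12 against 1.27). Of the 14 genes near 0 in METS, 10 had at least 0.5 of the DLD1 level in both SA and SPH. NOX1, the colonic NADPH oxidase, stood at 1.32, 1.68, 2.16 and 0.09 (-1.09). RPS6KA6, a ribosomal S6 kinase, differed from it: it stood at 1.31 RPKM in DLD1 and was listed at 0 in all 3 derivatives. HEPH, an iron oxidase of enterocytes, stood at 1.04, 0.53, 0.09 and 0.00 RPKM.

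**Figure D4:**
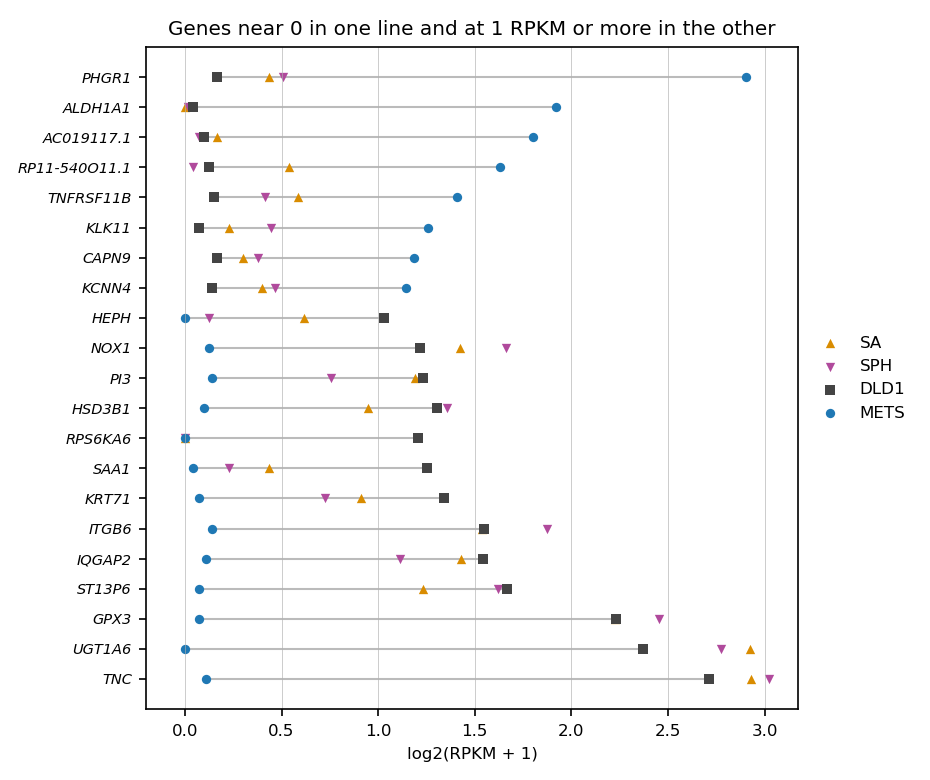
Of the genes near 0 in METS or in DLD1 and at 1 RPKM or more in the other, 21 are shown, with log2(RPKM + 1) on the x axis and 1 marker per line (1 library each). For the first 8 genes METS lies to the right of the other lines, and for most of the remaining 13 SA and SPH lie near DLD1.

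Position was not used to choose the members, and 148 of the 160 could be placed on a chromosome by name. On the X chromosome 12 of 320 genes compared (3.75%) were members, 3 higher and 9 lower, and on chromosome 11 16 of 629 (2.54%). Over all genes compared the share was 1.42%, with 101 of the 160 members lower. On chromosomes 13, 22 and 17 the shares were 0, 0.373% and 0.448%. The median over all X-linked genes was -0.03, so the chromosome as a whole was level. PBDC1 stood at 8.45, 7.41, 9.11 and 0.36 RPKM, and the measured genes on either side, UPRT (2.65 against 2.75) and ATRX (4.56 against 5.22), were alike in the 2 lines. The same held for KLHL4, of the kelch-like family (2.27 against 48.4), between CHM (2.37 against 2.61) and DIAPH2 (1.72 against 2.21). HMGN5, SH3BGRL and RPS6KA6 are consecutive measured genes on the X chromosome, and the middle one was higher (6.16 against 14.3 RPKM) while the outer ones were lower.

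On chromosome 12 OLR1, TMEM52B and GABARAPL1 were consecutive and all lower. TMEM52B stood at 31.0, 29.9, 24.7 and 11.01 RPKM (-1.41) and GABARAPL1, an autophagosome protein, at 30.1, 24.5, 34.9 and 11.3 (-1.34), with OLR1 at -1.84. The measured genes flanking the trio were not members, CLEC2D at 1.22 against 1.48 RPKM and NKG2-E at 1.45 against 0.82. This trio and the CKMT1A and CKMT1B pair were the only runs of consecutive members in 1 direction, among genes placed by name. Whether reads were assigned by strand is not given in the sources used here, so neighbouring or overlapping genes may share reads.

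**Figure D5:**
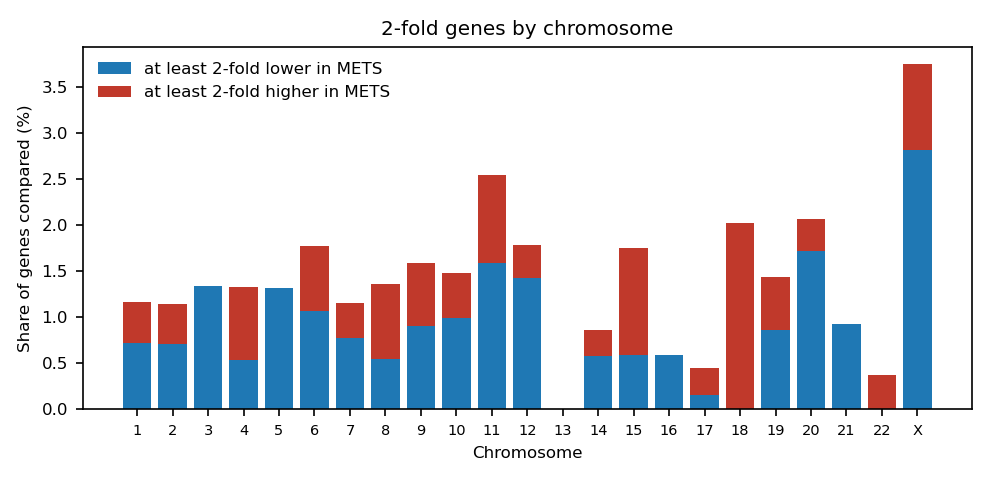
Share of the genes compared on each chromosome that were at least 2-fold lower (blue) or higher (red) in METS than in DLD1, in percent, 1 library each. The X chromosome has the tallest bar, 3.75%, and chromosome 13 has none, beside 1.42% over all genes compared.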

How the data were processed

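RNA-seq libraries of 4 lines followed standard Illumina methods (per the labels). The authors deposited values with 2 decimals and no named unit, read here as RPKM (scaled to gene length and library size), since they are not whole and column sums differ. The submitters' processing notes name hg19. Aligner, counter and gene models: not given in the sources used here. Genes with the higher of METS and DLD1 at 1 RPKM or more were compared as log2(RPKM + 1). Any gene at least 2-fold apart may be named; values in full go to the 12 highest and 12 lowest between 2-fold and 4-fold, the 12 highest and 12 lowest broadly expressed ones, 2-fold members of lists and up to 3 genes per list by size of difference. Function groups, markers' neighbours, genes related to AHR and genes just under 2-fold were picked after values were seen. Members and lists were chosen with earlier results of these data known. Chromosomes and neighbours came from RefSeq (GRCh38.p14, 10638 of 11275 names matched), lengths and GC content from GENCODE 29. No coordinates were compared between builds. Some genes counted here are not reported by name or shown in the dot plots. The rule was run on simulated data as a check of the code only. There, 4-fold changes were planted in genes of 5 RPKM or more in DLD1, with noise set in advance. This does not bear on the 118 members under 5 RPKM in one line or both, nor on members between 2-fold and 4-fold. Depth was estimated from the common step of values under 1 RPKM in short genes, and bears on counting error only. Python 3.11.15, pandas 2.3.3 and statsmodels 0.14.6 were used. Alternatives were pseudocounts of 0.1 and 5, other minimum values, a 3-fold rule, median-of-ratios scaling and, added later, a GC correction (lowess, span 0.3).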

Additional observations from a re-analysis of the deposited data

How the results depend on the processing

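The number of genes at least 2-fold apart, 160, was 368 at pseudocount 0.1, 31 at pseudocount 5, 88 with a minimum of 5 RPKM in the higher line and 33 under a 3-fold rule. The 42 broadly expressed genes became 17 at pseudocount 5, 100 with a minimum of 1 RPKM in both lines and 7 with a minimum of 20. The 14 genes at least 4-fold apart became 68 at pseudocount 0.1 and 4 at pseudocount 5. Without a filter on low values the 2-fold count stayed at 160, as it must. With a pseudocount of 1, a gene under 1 RPKM in both lines cannot reach 2-fold. Median-of-ratios scaling (a factor of 0.977) gave 156. A GC correction, chosen after seeing the data, gave 145 of 10682 genes with a GC value, 67 higher and 78 lower. The higher share was then 46.2%, against 36.9% of all 160 members. Before the correction, 53 higher and 97 lower members had a GC value, so part of the fall in number is from members without one. Of the 160 members, 31 stayed 2-fold at pseudocount 5 and 153 under median-of-ratios scaling. All 160 stayed so at pseudocount 0.1, because a smaller pseudocount can only widen a difference. Of 49 lists with 5 or more measured genes, the median of 10 changed sign under at least 1 alternative. For 9 of these it lay within 0.1 of 0 to begin with. The exception was chemokines and cytokines, which went from -0.12 to 0.011 with a minimum of 5 RPKM, which left 5 genes. No paired analysis was possible because each line has 1 library, and no library could be left out for the same reason. The spread between cultures of 1 line is unknown.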

Other observations

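Of the 22 members not sorted by function, 12 carry clone-type or readthrough names. AC019117.1 stood at 0.07 RPKM in DLD1 and 2.48 in METS, and RP11-540O11.1 at 0.09 and 2.10, with both at 0.45 or less in SA and SPH. AF064858.10 and AF064858.11 share a clone name and were both lower, at 3.37 against 0.82 RPKM and 2.33 against 0.35. RP11-1055B8.7 stood at 1.86, 5.05, 8.72 and 5.13 RPKM in the order DLD1, SA, SPH, METS, so DLD1 was lowest. ST13P6, a pseudogene entry, stood at 2.18, 1.35, 2.07 and 0.05 RPKM. MEGT1 and LY6G6D stood at 7.51 and 7.66 RPKM in METS against 0.85 and 1.66 in DLD1. MEGT1 could not be placed on a chromosome by name, and whether these 2 entries share a locus or reads was not tested.

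In a few members all 3 derivatives differed from DLD1 in the same direction, with SA or SPH at least as far from it as METS. PRR9 stood at 4.90, 1.15, 0.11 and 1.38 RPKM, where METS was nearest to DLD1. MAGED1 stood at 9.94, 3.79, 2.11 and 2.99 RPKM, CDC42EP5 at 4.09, 1.55, 0.94 and 0.95, and HMGN5 at 1.89, 0.62, 0.06 and 0.23. Among higher members CPT1A and TUBA1A were of this kind. B3GNT9, a glycosyltransferase, stood at 2.21, 3.50, 5.91 and 0.23 RPKM, so METS and the mesenchymal lines lay on opposite sides of DLD1. These genes were picked after their values were seen.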
